A study of Homo sapiens with 6 samples.

Results

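The genes described here are 9 components of class IA phosphoinositide 3-kinase (PI3K) signalling: the catalytic subunits PIK3CA, PIK3CB and PIK3CD, the regulatory subunits PIK3R1, PIK3R2 and PIK3R3, and the lipid phosphatases INPP4B, INPP5D and INPPL1. They were chosen by symbol, and each matched 1 of the 48114 rows of the deposited gene table. RNA was sequenced from TC-71, an established human Ewing sarcoma cell line whose labels give the genotype as WT. One group was treated for 16 h with BEZ235, an inhibitor of PI3K and of the growth-controlling kinase mTOR, and the other with the solvent dimethyl sulfoxide (DMSO) for the same time. Each group had 3 libraries from biological replicates of this single line, and the labels give no dose of BEZ235. The comparison asks how transcripts of the enzyme and of its opponents differ between cells given this inhibitor and cells given the solvent. PI3K activity was not measured, and effects through PI3K and through mTOR cannot be told apart.

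Class IA PI3K is a pair of proteins, a catalytic subunit that phosphorylates a membrane lipid to make PIP3, and a regulatory subunit that stabilises and restrains it and docks it on phosphorylated receptors and adaptors. PIP3 recruits AKT and other proteins to the membrane. The phosphatases INPP5D and INPPL1 remove a phosphate from PIP3, and INPP4B acts on the lipid that they produce.

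Whole read counts could be recovered from the table and amounted to between 184790722 and 233767211 per library. Of 7 Ewing sarcoma markers, CD99, NKX2-2, NR0B1, STEAP1, LIPI and FLI1 were present in both groups, and CCK was low, at 27 ± 17.2 normalized counts in BEZ235 cells and 75.1 ± 10.1 in DMSO cells. By the test described below, 3 of the 7 were higher with BEZ235, 3 were lower and FLI1 was not called. The most abundant, CD99, was at 208374 ± 2749.8 normalized counts in BEZ235 cells and 263162 ± 3649.8 in DMSO cells (SD, n = 3 each). The share of mitochondrial genes in a library was 0.51 to 0.71% with BEZ235 and 2.82 to 3.55% with DMSO, and its part in the results below was not tested. In such bulk samples, fewer cells of a kind and less RNA per cell cannot be told apart. Values are normalized counts, read counts divided by the authors' library scaling, and fold changes are on the log2(normalized count + 1) scale.

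All 3 catalytic subunits were lower with BEZ235, all 3 phosphatases were higher, and the regulatory subunits split, with PIK3R1 and PIK3R2 higher and PIK3R3 lower. All 9 genes passed the filter on low values and the limma test at an adjusted p of 0.05, 5 of them higher and 4 lower. Over all 23923 tested genes, 66.3% were called, 33.1% higher and 33.2% lower, so the count of calls among the 9 genes is not by itself a result about them. The groups did not overlap for 8 of the 9 genes, against 70.9% of all tested genes. The exception was PIK3CD, whose call was kept in only 8 of 17 alternative settings. The median absolute log2 fold change of the 9 genes was 0.50, against 0.60 over all tested genes. Among the 9, 1 gene, PIK3R3, changed at least 2-fold, as 26.3% of tested genes did.

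**Figure D1:**
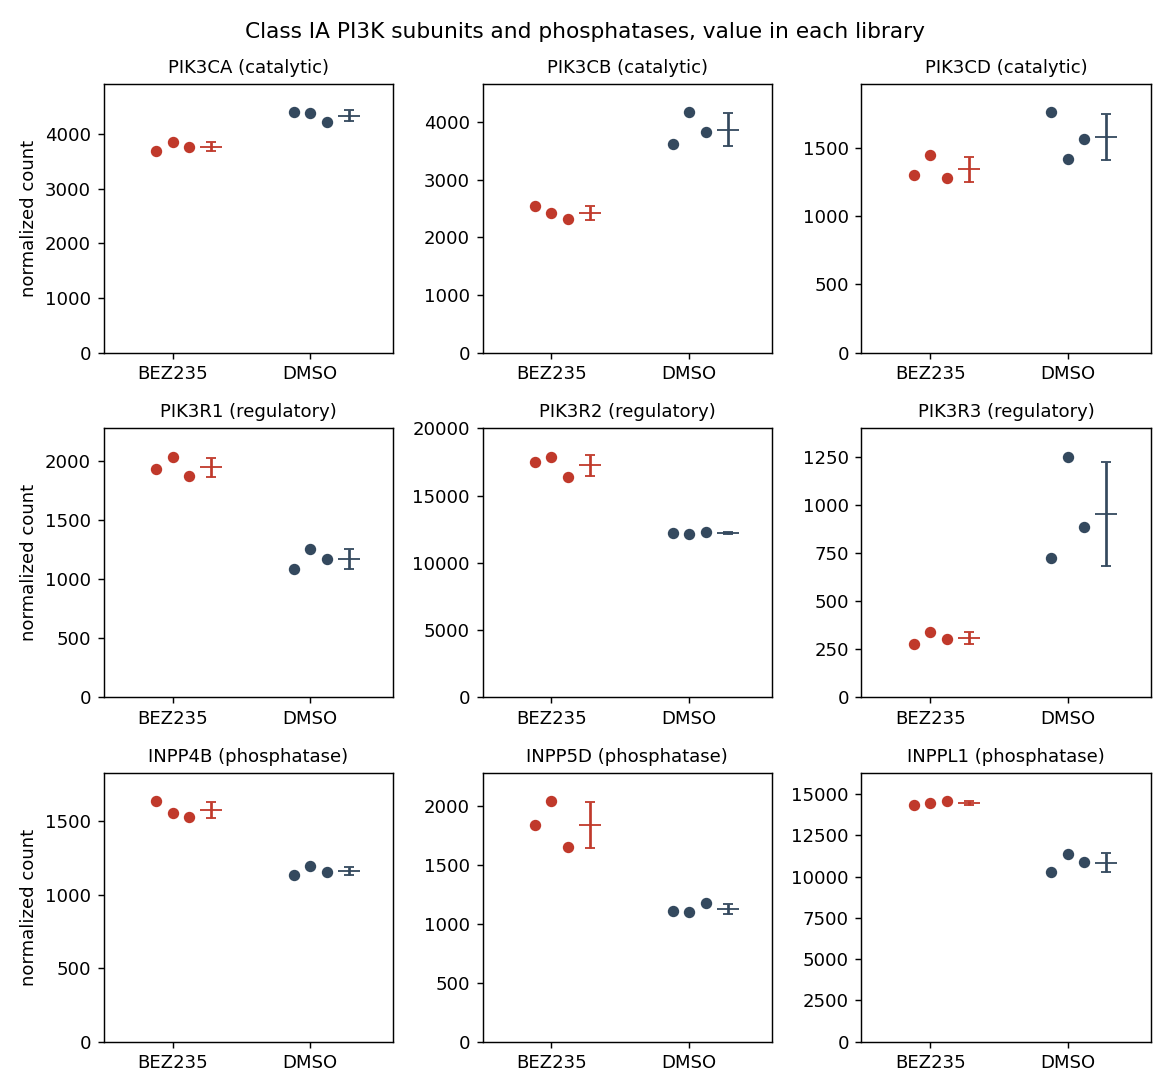
Normalized count (vertical axes, from 0) of each of the 9 genes in every library, BEZ235 left and DMSO right; points are libraries, and the bar beside them is the mean with its SD (n = 3). The groups overlap only for PIK3CD, where BEZ235 replicate 2 at 1449 lies above DMSO replicate 2 at 1417.

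PIK3CA encodes p110α, the catalytic subunit most often mutated in human cancers. It had 3689.9, 3857 and 3757 normalized counts with BEZ235, against 4398, 4391 and 4223 with DMSO. Every BEZ235 value lay below every DMSO value, but the distance was small, as the mean fell by 13.1% (log2 fold change -0.20, SE 0.054, limma adjusted p = 0.00656). Of all tested genes, 80.9% had a larger absolute change. The row lies on chromosome 3 (hg38, 179148357 to 179240073). It overlaps the row of KCNMB3, a potassium channel subunit, by 371 bases at its end; KCNMB3 was far less abundant, at 323 ± 36.5 and 171 ± 26.5 normalized counts in BEZ235 and DMSO cells. Part of PIK3CA also has a near-identical copy elsewhere in the genome with which reads could be shared.

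PIK3CB, which encodes p110β, a catalytic subunit that G-protein-coupled receptors can also activate, fell most among the 3. It had 2547, 2415 and 2311 normalized counts with BEZ235, against 3613, 4168 and 3832 with DMSO. The highest BEZ235 value was thus well below the lowest DMSO value. The log2 fold change was -0.67 (SE 0.070, 95% confidence interval -0.83 to -0.52, limma adjusted p = 7.69e-06). Its row is on chromosome 3 (138652698 to 138834928), and the rows that overlap it held almost no reads.

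PIK3CD encodes p110δ, a catalytic subunit best known from leukocytes. Its values were 1298, 1449 and 1278 normalized counts with BEZ235 and 1758, 1417 and 1562 with DMSO, and the groups overlapped. The log2 fold change of -0.23 (SE 0.093, 95% confidence interval -0.44 to -0.03) stood just inside the threshold (limma adjusted p = 0.0471). The call was kept in 8 of 17 alternative settings, whose adjusted p ran from 0.0063 to 0.168. Without DMSO replicate 1 the log2 fold change was -0.15 (adjusted p = 0.168). Inside the PIK3CD row (chromosome 1, 9651731 to 9729114) lies its antisense gene PIK3CD-AS2, which went the other way, at 1419, 1458 and 1222 normalized counts with BEZ235 against 999, 1029 and 1009.8 with DMSO (log2 fold change 0.43, SE 0.086, limma adjusted p = 0.00111). The labels do not say whether counting kept strand, so reads of the pair may be mixed.

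Among blood cell markers, which bear on PIK3CD and on INPP5D, the leukocyte genes CD3E and MS4A1 and the red cell gene HBB were at 0 in all libraries, and PTPRC had 0.99 to 3.62 normalized counts with BEZ235 and 3.34 to 16.5 with DMSO. CD14 and LCP2 did not pass the filter either. The summed level of the 10 blood cell markers with a row ran from 103237 to 108580.1 in BEZ235 and from 105572 to 110550.1 in DMSO libraries, nearly all of it from ITGB2, an integrin subunit. Of the 3 markers tested, LYZ was called higher, CORO1A was called lower and ITGB2 was not called. LYZ was scarce, at 34 ± 14 normalized counts with BEZ235 and 9.42 ± 7.47 with DMSO. Its log2 fold change of 2.13 was imprecise (SE 0.788, limma adjusted p = 0.0335). The summed endothelial markers were at 8.11 to 13.8 normalized counts with BEZ235 and 2.06 to 21.6 with DMSO, and the epithelial ones at 1099 to 1325 and 1698 to 1743. The 6 fibroblast markers, which include the receptor PDGFRB described below, summed to 39856 to 41640.3 with BEZ235 and 32408 to 33445 with DMSO, with 3 called higher and 2 lower. The part of these markers in the results was not tested.

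For the regulatory subunits, PIK3R1 encodes p85α, with its shorter forms p55α and p50α from internal starts. It had 1931, 2036 and 1875 normalized counts with BEZ235 and 1083, 1254 and 1175 with DMSO. All 3 BEZ235 libraries lay above all DMSO libraries, and the log2 fold change was 0.73 (SE 0.078, limma adjusted p = 9.04e-06). It was close to that of INPP5D, and without BEZ235 replicate 3 their order turned, with 0.76 for PIK3R1 and 0.78 for INPP5D. Its row spans chromosome 5, 68215756 to 68301821. An unnamed row of 1750 bases inside its end, with which reads could be shared, rose too, with 1213 ± 98.3 normalized counts in BEZ235 and 664 ± 70.7 in DMSO cells (log2 fold change 0.87, SE 0.103).

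PIK3R2, which encodes p85β, was the most abundant of the 9 genes. It rose to 17473, 17867 and 16384 normalized counts in BEZ235 cells, against 12180.5, 12136 and 12258 in DMSO cells. The SD was 61.8 among the DMSO libraries and 768 among the BEZ235 libraries, with a wide gap between the groups (log2 fold change 0.50, SE 0.051, limma adjusted p = 6.26e-06). The row (chromosome 19, 18153163 to 18170533) lies wholly within a long unnamed row, which had a small change the other way (log2 fold change -0.15, SE 0.055).

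PIK3R3 encodes p55γ, a shorter relative of p85 that lacks its amino-terminal domains. Its values were 276, 339.6 and 304 normalized counts with BEZ235, against 724, 1252 and 885 with DMSO. The BEZ235 libraries were close together, while the DMSO libraries spread over a wider range, with replicate 2 the highest. Its level with BEZ235 was 0.33 times that with DMSO (log2 fold change -1.60, SE 0.178, limma adjusted p = 1.29e-05), the strongest change of the 9 genes, and 14.4% of tested genes had a larger absolute change. Without DMSO replicate 2 the log2 fold change was -1.39. Inside the row (chromosome 1, 46040140 to 46174901) lies the noncoding locus LOC101929626 (46133371 to 46139081). In the GENCODE v29 annotation PIK3R3 starts at 46133036, so the locus lies before that start. The locus had 0 reads in all BEZ235 libraries, where 3 reads correspond to 2.72 to 3.47 normalized counts. In DMSO libraries it had 58.3, 65.1 and 27.5 normalized counts.

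The phosphatases rose without overlap between the groups. INPP5D encodes SHIP1, which removes the phosphate at the fifth position of PIP3 and is best known from blood cells. It had 1840.3, 2038 and 1648 normalized counts with BEZ235 and 1108, 1101 and 1175 with DMSO. The lowest BEZ235 library was above the highest DMSO library by more than the SD of either group, 195 with BEZ235 and 40.8 with DMSO. The log2 fold change was 0.70 (SE 0.088, limma adjusted p = 3.14e-05), and the row lies on chromosome 2, 233059967 to 233207905.

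INPPL1 encodes SHIP2, the widely expressed relative of SHIP1. Its values were 14369, 14455 and 14557 normalized counts in BEZ235 cells and 10264, 11385 and 10885 in DMSO cells. The BEZ235 libraries were tightly grouped above the DMSO libraries (log2 fold change 0.42, SE 0.053, limma adjusted p = 3.54e-05). Its row, on chromosome 11 (72224767 to 72239147), shares 71 bases with that of the transcription factor gene PHOX2A, which had 47.1 ± 5.86 and 64 ± 32.4 normalized counts in BEZ235 and DMSO cells.

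INPP4B removes a phosphate from the product of SHIP1 and SHIP2 and is regarded as a tumour suppressor in several epithelial cancers. It had 1636, 1559 and 1531 normalized counts with BEZ235 and 1137, 1195 and 1157 with DMSO. Both groups were tight and apart (log2 fold change 0.44, SE 0.071, limma adjusted p = 2.38e-04). The row lies on chromosome 4, 142023160 to 142846535, and the rows that overlap it were at 0 in every library.

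**Figure D2:**
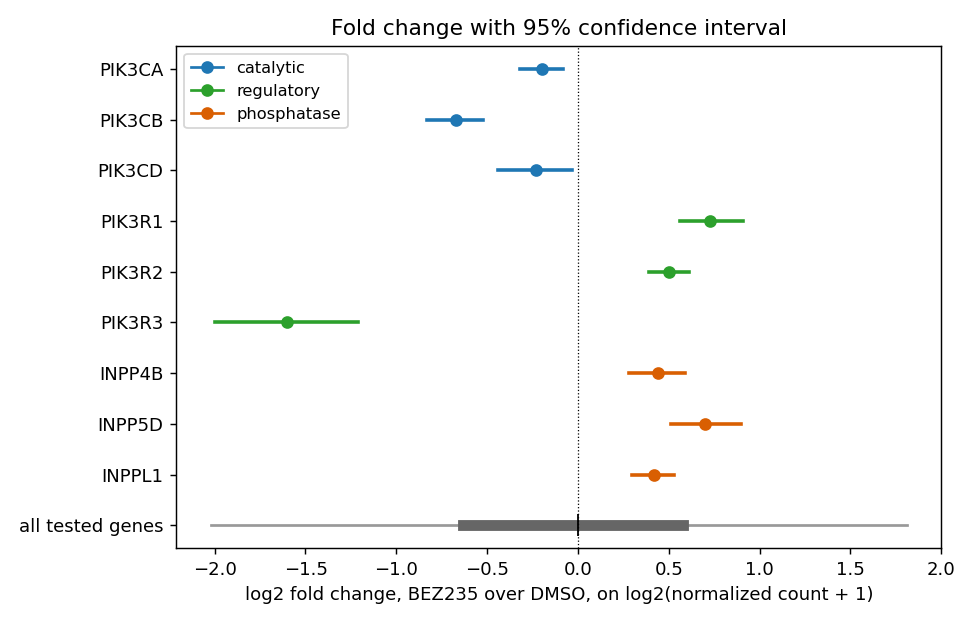
Log2 fold change of BEZ235 over DMSO (horizontal axis) for each of the 9 genes, points with 95% confidence intervals from limma; the last line shows all 23923 tested genes, with the thick bar from the 25th to the 75th percentile (-0.63 to 0.58) and the thin line from the 5th to the 95th (-2.02 to 1.81). PIK3R3 at -1.60, PIK3CB at -0.67, PIK3R1 at 0.73 and INPP5D at 0.70 lie outside the thick bar, no gene lies outside the thin line, and the interval of PIK3CD ends at -0.03.

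Levels of different genes were compared per kilobase of annotated exon (GENCODE v29), since longer transcripts give more reads. In BEZ235 cells the order was PIK3R2, INPPL1, PIK3CA, PIK3CB, INPP5D, PIK3R1, PIK3CD, INPP4B and PIK3R3, with levels per kilobase from 4243 ± 189 for PIK3R2 down to 51.5 ± 5.39 for PIK3R3. PIK3CA and PIK3CB, at 411 ± 9.17 and 405 ± 19.7, did not differ beyond their spread, and their order changed between libraries. Values of PIK3CB and INPP5D overlapped across libraries, as did those of PIK3R1 and PIK3CD. Within each BEZ235 library, however, PIK3CB was above INPP5D and PIK3R1 was above PIK3CD. In DMSO cells the order was PIK3R2, INPPL1, PIK3CB, PIK3CA, PIK3CD, INPP5D, PIK3R3, PIK3R1 and INPP4B, from 3001 ± 15.2 to 98.1 ± 2.48. There the values of PIK3R3 overlapped those of PIK3R1 and INPP5D, and the other neighbours were apart. Which transcripts the cells make was not measured, so these lengths, and with them the order, are approximate.

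Within the catalytic class, the share of PIK3CB in the summed level per kilobase was 38.5 ± 1.6% in BEZ235 cells and 46.2 ± 2.8% in DMSO cells, while that of PIK3CA was 39.1 ± 1 and 33.8 ± 0.52%, and that of PIK3CD 22.5 ± 1.1 and 19.9 ± 2.4% (SD, n = 3 each). PIK3R2 made up nearly all of the regulatory class, 93.3 ± 0.2% with BEZ235 and 90.6 ± 1.6% with DMSO. PIK3R3 contributed 1.13 ± 0.11% and 4.83 ± 1.3% of it, so the gene with the strongest change was the least of its class with BEZ235. INPPL1 held 85.6 ± 1% of the phosphatase level with BEZ235 and 87.3 ± 0.55% with DMSO.

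The summed level per kilobase of the catalytic subunits was 1056, 1079 and 1021 with BEZ235 and 1392, 1424 and 1375 with DMSO. That of the regulatory subunits was 4596, 4717 and 4325 with BEZ235 and 3259, 3359 and 3317 with DMSO. The ratio of the regulatory to the catalytic sum, which the scaling of a library cannot move, was 4.35, 4.37 and 4.24 with BEZ235 against 2.34, 2.36 and 2.41 with DMSO. These ratios are levels of RNA per annotated length, not of protein, and they are given without a test.

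**Figure D3:**
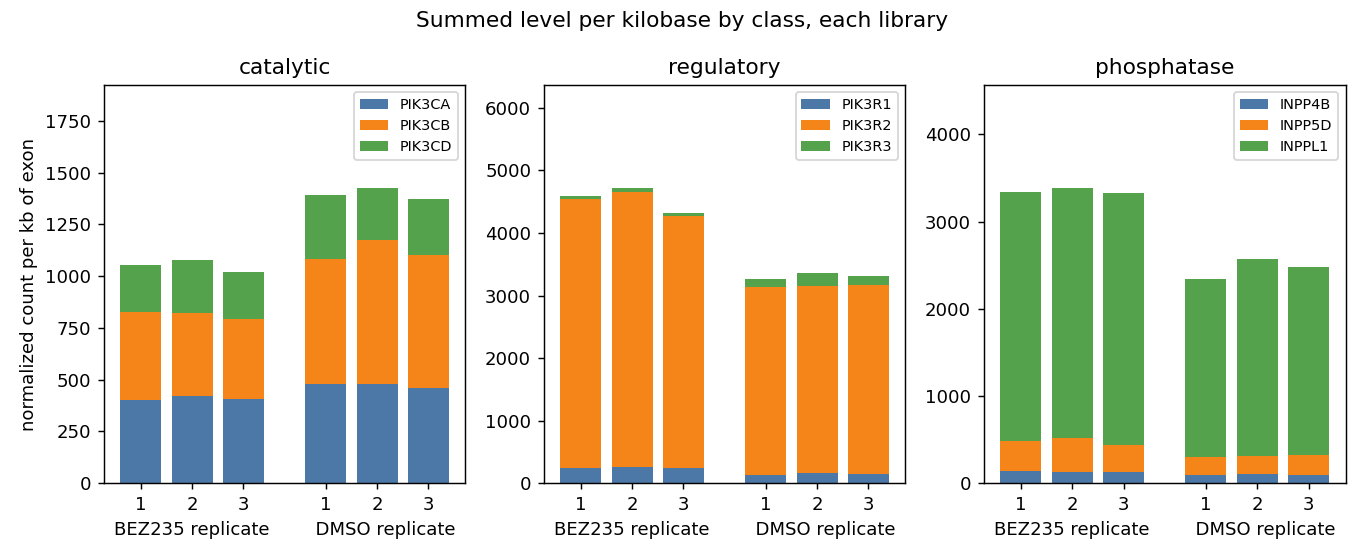
Normalized count per kilobase of exon (vertical axes, from 0) in each library, BEZ235 replicates left and DMSO replicates right, stacked by gene within the catalytic, regulatory and phosphatase classes. The catalytic stacks are lower with BEZ235 (1021 to 1079 against 1375 to 1424), and the other stacks are higher, mostly through PIK3R2 and INPPL1.

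Ratios between 2 genes of a class within a library are likewise free of its scaling, and all 9 pairs were compared. The log2 ratio of PIK3R1 to PIK3R3 was 2.80, 2.58 and 2.62 in BEZ235 libraries and 0.58, 0.00 and 0.41 in DMSO libraries, a difference of 2.34. PIK3R1 and PIK3R3 thus had about equal counts in DMSO replicate 2 and far from equal ones in every BEZ235 library. For PIK3CA to PIK3CB the log2 ratio averaged 0.64 ± 0.09 with BEZ235 and 0.17 ± 0.11 with DMSO, a difference of 0.47, and for PIK3CB to PIK3CD it averaged 0.85 ± 0.12 and 1.30 ± 0.26, a difference of -0.44. INPP5D gained on both other phosphatases, by 0.29 on INPPL1, and the INPP4B to INPP5D ratio differed by -0.26. Among all tested genes taken singly, the groups did not overlap for 70.9%. No such share was computed for other gene pairs, so the count of pairs here is no result by itself. The groups did not overlap for 7 of the 9 pairs, each with the smallest p that an exact two-sided permutation test of 3 against 3 can give, 0.1 (0.129 adjusted over the pairs), so none can pass 0.05. They overlapped for PIK3CA to PIK3CD, which differed by 0.03 (-0.04 to 0.11 when each library was left out; exact permutation p = 0.9), and for INPP4B to INPPL1, which differed by 0.02 (-0.01 to 0.05; exact permutation p = 0.6).

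Reference promoter sequence is shown for the gene with a forkhead motif at its start, the gene with an E-box at an internal start, and PIK3R1 and PIK3R3, regulatory subunits that moved in opposite directions. The RefSeq table (GRCh38.p14) held 27 start windows for the 9 genes, and the 250 bases before each start were searched on both strands for GTAAACA, the core bound by forkhead factors such as the AKT-controlled FOXO proteins, CACGTG, the E-box bound by MYC and related factors, GGAAGGAA, a repeat bound by ETS factors, and TGATGCAA, a site of ATF4 with C/EBP partners. Only 2 of the 27 windows held any of these letters, shown in capitals below, which were the forkhead core on the opposite strand, 149 bases before the PIK3CA start, and an E-box 54 bases before an internal INPP4B start. Of all 35116 windows in the table, 2.98% held the forkhead core, 6.34% the E-box, 3.06% the ETS repeat and 0.772% the ATF4 site. A match is a description of letters, and which start the cells use was not measured.
PIK3CA, chr3:179148107-179148356, plus strand: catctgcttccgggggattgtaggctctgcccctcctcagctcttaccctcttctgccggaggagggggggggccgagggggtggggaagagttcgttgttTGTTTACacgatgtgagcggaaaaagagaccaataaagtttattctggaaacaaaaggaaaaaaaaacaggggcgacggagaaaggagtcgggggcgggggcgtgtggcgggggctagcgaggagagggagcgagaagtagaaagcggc
INPP4B, chr4:142405447-142405696, minus strand: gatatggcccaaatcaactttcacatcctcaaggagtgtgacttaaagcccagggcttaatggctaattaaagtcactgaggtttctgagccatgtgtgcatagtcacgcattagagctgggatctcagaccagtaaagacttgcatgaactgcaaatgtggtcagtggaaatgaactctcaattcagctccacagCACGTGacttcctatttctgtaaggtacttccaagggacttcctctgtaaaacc
PIK3R1, chr5:68215506-68215755, plus strand: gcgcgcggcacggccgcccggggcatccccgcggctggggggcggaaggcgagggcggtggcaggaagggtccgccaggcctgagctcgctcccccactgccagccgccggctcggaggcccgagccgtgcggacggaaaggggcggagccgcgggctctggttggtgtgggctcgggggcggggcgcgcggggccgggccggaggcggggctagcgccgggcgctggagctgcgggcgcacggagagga
PIK3R3, chr1:46174902-46175151, minus strand: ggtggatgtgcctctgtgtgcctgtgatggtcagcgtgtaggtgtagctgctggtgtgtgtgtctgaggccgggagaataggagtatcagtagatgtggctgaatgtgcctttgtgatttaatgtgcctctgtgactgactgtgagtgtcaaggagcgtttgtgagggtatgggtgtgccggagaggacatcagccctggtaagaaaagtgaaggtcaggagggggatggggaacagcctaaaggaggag
The PIK3R1 window, before the start of the long form, had a GC content of 81.6%. That of PIK3R3, the outermost of 6 windows of this gene, had 53.6%, the PIK3CA window 57.6% and the internal INPP4B window 44.8%. The PIK3R3 window shown lies before the start of the row. The next RefSeq start of PIK3R3, which is also its start in GENCODE v29, is 41865 bases further in, and the window before it had 60.4%.

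Among 15120 other named genes with a mean of at least 100 normalized counts, those whose log2 values followed PIK3R3 most closely over the 6 libraries were HAUS7, a subunit of the augmin complex of the spindle (Pearson's r 0.9988), CENPM, a centromere protein (0.9988), and METTL22, a methyltransferase (0.9986). CENPM had 4541, 5119 and 4695 normalized counts with BEZ235 and 9623, 14761 and 11785 with DMSO. The same DMSO library was highest as for PIK3R3, which the choice by correlation favours. PIK3R1 was followed by TUBA3FP, a tubulin pseudogene (0.9998), ZNF771, a zinc finger gene (0.9997), and PSMB10, an immunoproteasome subunit (0.9997). INPP5D was followed by HSPB6, a small heat-shock protein (0.9987), HDLBP, an RNA-binding protein (0.9984), and DNMBP, a scaffold and exchange factor (0.9984). The group difference alone makes such values common, and 15.2, 23.9 and 20.5% of the named genes had an r of at least 0.95 with PIK3R3, PIK3R1 and INPP5D in turn.

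Of 5 other genes tied to class I PI3K, 3 were tested, and each had a larger absolute log2 fold change than any of the 9. PIK3CG, which encodes the class IB catalytic subunit p110γ, rose to 922, 895 and 825 normalized counts in BEZ235 cells, against 88.6, 122 and 115 in DMSO cells (log2 fold change 3.02, SE 0.149, limma adjusted p = 2.32e-08). Its regulatory partners PIK3R5 and PIK3R6 stayed under the filter, at means of 0 and 6.65 normalized counts with BEZ235 and 4.91 and 14.9 with DMSO. PIK3AP1, an adaptor that recruits PI3K, also rose, to 602 ± 29.3 normalized counts with BEZ235 against 125 ± 29.2 with DMSO. PIK3IP1, a membrane protein that inhibits the catalytic subunit, fell to 124 ± 17.2 against 470.2 ± 88.2 (log2 fold change -1.90, SE 0.180).

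In the list of class II and III PI3K and its partners, 3 of 9 tested genes rose and 4 fell. With total-count scaling, 2 were called higher and 6 lower. Counts in this list and in those below stand beside 33.1% called higher and 33.2% lower over all tested genes. PIK3C3, the class III kinase of endosomes and autophagy, had 7691 ± 361 normalized counts with BEZ235 and 3153 ± 127 with DMSO (log2 fold change 1.29, SE 0.059). Its autophagy partner ATG14 had a log2 fold change of 1.07 and the class II kinase PIK3C2A one of 0.23. The partners RUBCN, UVRAG and PIK3R4 fell, with log2 fold changes of -0.54, -0.47 and -0.29. ATG14 and RUBCN overlap the rows of FBXO34 and FYTTD1, which were more abundant.

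Other phosphoinositide phosphatases moved both ways, with 8 of 23 tested genes higher and 12 lower and a median log2 fold change of -0.19. With total-count scaling, 5 rather than 8 were called higher. TPTE2, a membrane phosphatase with several similar copies, and SYNJ2, a phosphatase of the fifth position, rose by 1.70 and 1.06 on the log2 scale. INPP5B, MTMR6 and PIP4P1 had log2 fold changes of -0.80, -0.82 and -0.78. PIP4P1 overlaps the row of the far more abundant APEX1. INPP4A, the closest relative of INPP4B, fell to 4282 ± 199 normalized counts with BEZ235 against 5481 ± 349 with DMSO (log2 fold change -0.36, SE 0.064); it was picked for this kinship after its values were seen.

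Of 10 tested kinases that act on phosphoinositides before or beside PI3K, 3 rose and 5 fell, against 2 higher and 6 lower with total-count scaling. PIP5K1C, which makes the lipid that PI3K consumes, had 5669 ± 184 normalized counts with BEZ235 and 1991 ± 41.9 with DMSO (log2 fold change 1.51, SE 0.057). PIP4K2B and PIKFYVE rose by 0.73 and 0.21 on the log2 scale. PI4K2A and PI4K2B, which make its precursor, both had a log2 fold change of -1.19, and PIP4K2A had one of -1.05; PI4K2A overlaps the row of MORN4.

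Among proteins that bind the PI3K lipids and regulators of AKT, 6 of 19 tested genes rose and 8 fell. VAV1, a guanine nucleotide exchange factor, rose to 21279.7 ± 867 normalized counts with BEZ235 against 8519 ± 749.7 with DMSO (log2 fold change 1.32, SE 0.067). PLEKHA2, which binds the product of SHIP1 and SHIP2, had 1441 ± 93 normalized counts with BEZ235 and 718 ± 40.7 with DMSO (limma adjusted p = 1.58e-06). CYTH2, an Arf exchange factor that overlaps the row of the very abundant FTL, had a log2 fold change of 0.99. CYTH1, the AKT phosphatase PHLPP2 and ARAP2 had log2 fold changes of -0.92, -1.19 and -2.52. Of receptors and adaptors that recruit class IA PI3K, 7 of 14 rose and 4 fell. The receptors PDGFRB and KIT and the adaptor SHC1 rose by 1.43, 0.88 and 0.88 on the log2 scale, while the receptor ERBB3, the adaptor GRB2 and the ubiquitin ligase CBL had log2 fold changes of -2.33, -0.68 and -0.25.

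**Figure D4:**
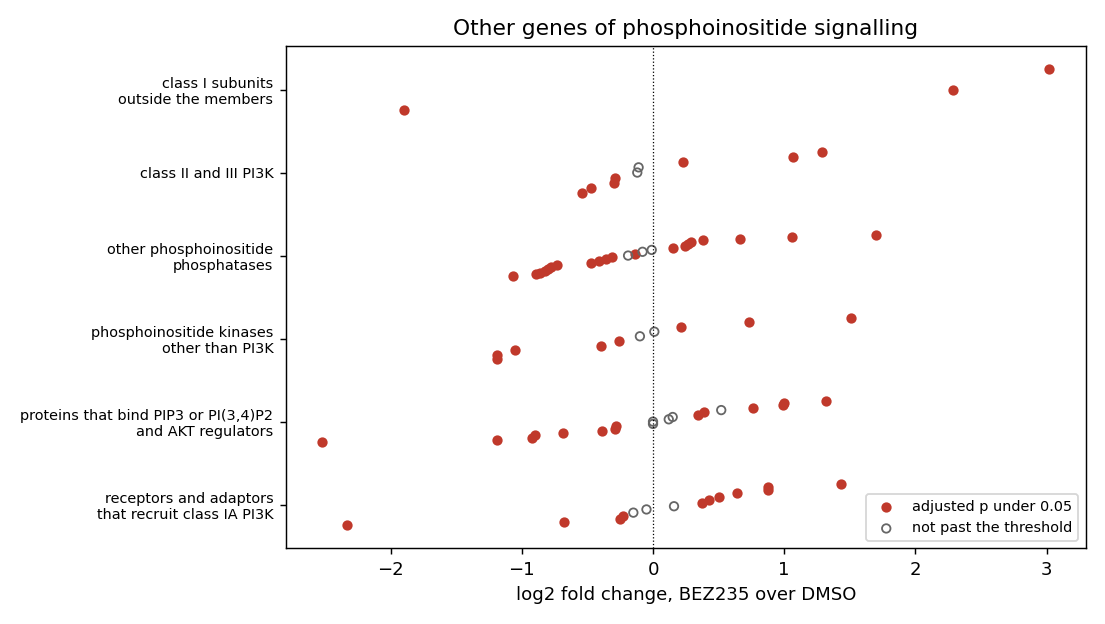
Log2 fold change of BEZ235 over DMSO (horizontal axis) for the tested genes of 6 lists of phosphoinositide signalling; each point is a gene, filled where the limma adjusted p was under 0.05. Every list has genes on both sides of 0, with the highest value at 3.02 for PIK3CG and the lowest at -2.52 for ARAP2.

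The 9 genes were refitted under 17 other settings. The direction of every one of them held in all 17, and all calls held except that of PIK3CD. The values for PIK3R3 ran from -1.78 to -1.39 and those for PIK3R1 from 0.64 to 0.79. Total-count scaling moved all genes by a median of -0.10, with 43.7% of calls higher in place of 49.9%, and placed PIK3CB at -0.77 and INPPL1 at 0.32.

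**Figure D5:**
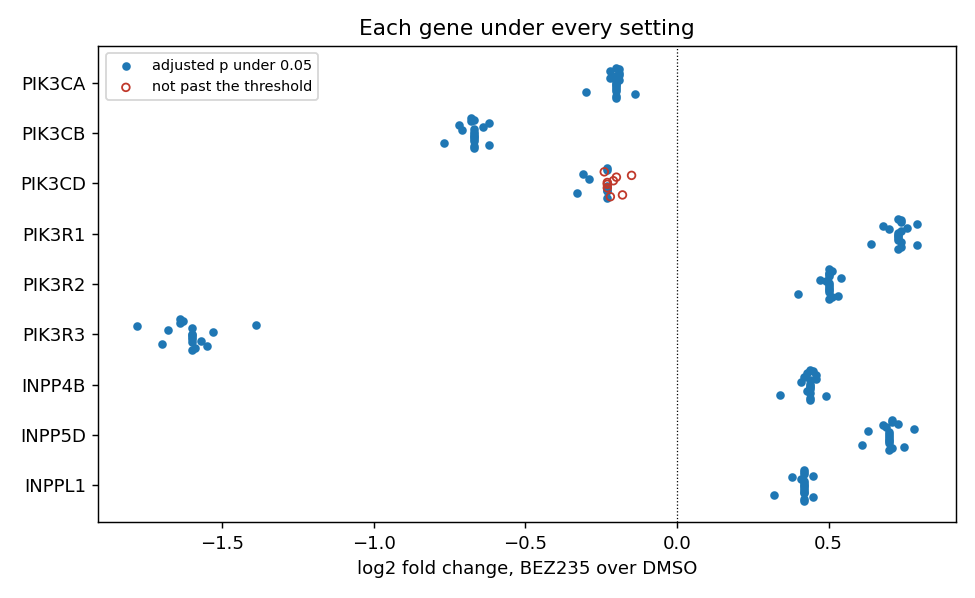
Log2 fold change of BEZ235 over DMSO (horizontal axis) for each of the 9 genes in the reported fit and under the 17 other settings; each point is a setting, filled where the adjusted p was under 0.05 and open where it was not. Open points occur for PIK3CD alone, at values from -0.24 to -0.15.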

How the data were processed

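RNA sequencing libraries of TC-71 cells treated for 16 h with BEZ235 or DMSO (3 each) were analysed. The authors deposited normalized read counts per gene, a signal that is never negative; per the file headers the rows are FASTDB genes with hg38 coordinates. The submitters' processing notes name the tools STAR 2.4.0, DESeq, SAMtools, Picard and FastQC and the build hg38, with no roles; the counting rule is not stated there. Control columns were matched to the DMSO samples by number. Values were whole multiples of 1 step per library (0.835 to 1.158), so whole reads were recovered for 100.0% of values within 0.01 normalized counts.

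The 23923 genes that reached 10 normalized counts in 3 or more libraries were tested on log2(normalized count + 1) by limma (3.58.1, R 4.3.3) with a mean-variance trend, two-sided, with Benjamini-Hochberg adjustment over all genes tested. edgeR 4.0.16 and DESeq2 1.42.0 on recovered reads were alternatives and called 15744 and 15706 genes, against 15863 with limma. Libraries of a group differed by more than sampling noise (chi-square per gene from 16.7 to 146.8). The fit was also run on simulated data with few changed genes and the same dispersion for all, unlike these data. No result above rests on that run.

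The genes and lists were chosen with earlier results of these data known. Genes named are the 9 components, up to 3 genes per list and direction with the smallest adjusted p, 3 closest correlates of the 3 strongest changes, and markers; others are marked as chosen later. Some genes that this rule names are not reported here. Lists are described by counts of calls, medians or summed levels, with no test of the list. Intervals from limma reflect the spread between libraries, and limits from reads cover counting error only.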

Additional observations from a re-analysis of the deposited data

How the results depend on the processing

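Of 465 values recomputed under the alternatives, 453 kept their direction and their side of the threshold, or stayed close to the reported value. The exceptions concern PIK3CD, 1 list and the order by level. Closeness was read loosely. The shifts of the class II and III PI3K list and of the kinase list with total-count scaling, given above, were taken as close. So were small ratios that changed sign, such as PIK3CA to PIK3CD, from 0.03 to -0.04 without DMSO replicate 1. The log2 fold change of PIK3CD, -0.23 as reported, lost its call with TMM scaling (-0.22, adjusted p = 0.0545), quantile normalization (-0.18, 0.123), no filter (-0.23, 0.0522), limma without the trend (-0.23, 0.105) and the replicate block (-0.23, 0.0507), and ran from -0.31 to -0.15 when each library was left out. The cause was not tested. The number of genes called among the 9 was 8 to 9 and that over all genes 14483 to 15898 when each library was left out. With total-count scaling, 5 of the other phosphoinositide phosphatases were called higher. Ordered by unscaled normalized count instead of level per kilobase, 5 of the 9 genes in BEZ235 and 3 in DMSO cells kept their rank. Same-numbered libraries did not deviate together over all tested genes (correlations of -0.038, 0.023 and 0.044, with 2 of 6 libraries closest to their own number). With 3 libraries per group this cannot exclude a pairing by number, and the reported fit used none. The replicate block called 15917 genes and 8 of the 9. With it the limma adjusted p was 3.38e-07 for PIK3R3, against 1.29e-05 as reported, and 0.0507 for PIK3CD, against 0.0471. With 184790722 reads or more per library, the scarcest of the 9 genes, PIK3R3, still had 238 reads or more in every library.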

Other observations

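ITGB2, an integrin subunit best known from leukocytes, had 104889 ± 2953 normalized counts in BEZ235 cells and 107956 ± 2697 in DMSO cells (SD, n = 3 each; log2 fold change -0.04, SE 0.054, limma adjusted p = 0.512). CORO1A, an actin regulator whose row overlaps that of the more abundant MAPK3 (7789 with BEZ235 and 6595 with DMSO), fell to 264 ± 12.6 normalized counts with BEZ235 against 693 ± 59.3 with DMSO (log2 fold change -1.38, SE 0.114, limma adjusted p = 1.15e-06).

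TPTE2 had 7958 ± 228 normalized counts with BEZ235 and 2459 ± 259 with DMSO. Its pseudogene TPTE2P1 had 416 ± 43.2 and 93.5 ± 11.2, and TPTE2P3 had 187 ± 41.1 and 186 ± 38.1. TPTE2P6 had 199 ± 64.8 and 137 ± 50.3, and TPTE had 37.6 ± 36.7 and 34.2 ± 13.5. Of these copies, only TPTE2P1 was called. These copies were looked up after the value of TPTE2 was seen.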
